A study of Mus musculus with 4 samples.

Results

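The 38 genes described here are interferon-stimulated genes, that is, genes whose transcription rises when a cell is exposed to interferon. They were chosen by name, with earlier results of these data known. All 38 were found among the 21627 protein-coding genes of chromosomes 1 to 19 and X. The annotation was that of RefSeq for GRCm38.p6, whose coordinates are those of mm10. A locus was the gene body plus 10 kb on either side, and every accessible interval overlapping a locus was taken. Overlapping intervals of the 4 libraries were merged into regions, and a region lying in the loci of neighbouring members was counted once. The members held 183 regions, of 88410 in the loci of all protein-coding genes and 120423 in all.

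The assay was Omni-ATAC-seq, which cuts and tags open chromatin with a transposase, applied to cultured bone marrow-derived mouse cells of the C57BL/6J strain. The 4 groups had 1 library each: a mix of common myeloid progenitors (CMP) and granulocyte-monocyte progenitors (GMP), or monocytes, each from wild-type (WT) and from Cxcr3-/- mice. Cxcr3-/- mice lack the chemokine receptor that binds Cxcl9 and Cxcl10, both products of genes that interferon induces. Under disease state the labels enter hepatocellular carcinoma, although per the design text the cells used for this assay were cultured. No interferon treatment is named in the labels. The culture conditions, the age of the mice, the deleted part of Cxcr3 and the handling of the duplicate sequencing are not given in the sources used here.

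Interferons of type I bind a receptor whose kinases, Jak1 and Tyk2, phosphorylate Stat2, which joins Irf9 in the complex ISGF3. That complex binds the interferon-stimulated response element (ISRE), a pair of GAAA half-sites, in the promoters of its targets, whereas interferon gamma acts mainly through a palindromic element named GAS. The products sense viral nucleic acid, degrade or mask foreign RNA, block viral entry and release, and attack the vacuoles of intracellular microbes, and in myeloid cells many of them are present at a low level before any infection.

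RefSeq promoter windows of 300 bases, from 250 before to 50 after a transcription start, were available for 31 of the 38 members. The ISRE core, here GAAA and a further GAAA with any 2 bases between them on either strand, occurred in 20 of these 31 members (64.5%) and in 687 of 17273 genes with a window (3.98%). With a C required after the second GAAA the shares were 16 members (51.6%) and 0.955% of genes. The GAS letters TTCNNNGAA, a palindrome of half-sites, were found in 9 members (29.0%) and 9.02% of genes, while the ETS-IRF composite (GGAA and GAAA with any 2 bases between them), which can overlap the ISRE core, was found in 4 members (12.9%) and 3.02% of genes. The PU.1-type letters GAGGAAGT were in 1 member (3.23%) and 3.66% of genes. A match to letters is a description of the window and not a measured binding site.

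The stretches below hold the ISRE core of 1 member of each role but the sensors, each with a region called in all 4 libraries over its start. The cores of the sensors Ifih1 and Eif2ak2 lie after the start and are not printed. They run 5′ to 3′ on the gene's strand, lie wholly before the start, and are from RefSeq GRCm38.p6. Capitals mark the core, which reads as TTTC half-sites where it lies on the opposite strand, and overlapping matches run together.

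Stat2, chr10:128270248-128270315, plus strand: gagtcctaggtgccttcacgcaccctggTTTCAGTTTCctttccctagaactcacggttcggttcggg

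Oas3, chr5:120777695-120777764, minus strand: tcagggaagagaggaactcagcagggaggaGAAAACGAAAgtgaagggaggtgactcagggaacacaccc

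Ifit1, chr19:34640755-34640843, plus strand: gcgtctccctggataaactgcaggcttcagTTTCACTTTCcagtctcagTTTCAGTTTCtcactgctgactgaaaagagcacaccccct

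Ifitm2, chr7:140955968-140956037, minus strand: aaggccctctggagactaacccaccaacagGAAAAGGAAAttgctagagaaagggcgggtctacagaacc

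Gbp2, chr3:142620574-142620643, plus strand: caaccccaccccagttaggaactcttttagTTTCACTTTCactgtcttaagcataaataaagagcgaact

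Bst2, chr8:71537557-71537632, minus strand: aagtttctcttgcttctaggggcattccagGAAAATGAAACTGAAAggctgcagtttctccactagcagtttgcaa

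The next stretches come from members whose core was not inside a region called in all 4 libraries, and they were chosen after the values were seen.

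Oas1a, chr5:120907526-120907575, minus strand: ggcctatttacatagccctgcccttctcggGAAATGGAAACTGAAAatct

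Oas1g, chr5:120887614-120887661, minus strand: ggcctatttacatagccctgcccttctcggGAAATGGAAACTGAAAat

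Ifit3, chr19:34583343-34583446, plus strand: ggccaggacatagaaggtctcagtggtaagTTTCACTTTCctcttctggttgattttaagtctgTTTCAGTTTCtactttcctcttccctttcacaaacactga

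Isg15, chr4:156200845-156200926, minus strand: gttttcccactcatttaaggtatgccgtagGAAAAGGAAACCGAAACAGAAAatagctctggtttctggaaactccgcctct

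Isg15 carried 3 overlapping matches, the end of 1 being the beginning of the next. The Oas1a and Oas1g stretches are nearly the same text, and the longest run of bases that the promoter windows of both share is 73. Reads were 75 bases long per the labels, and stretches of that full length were shared between Ifit1 and Ifit1bl2 (171 of the 226 in a window), Ifit3 and Ifit3b (95) and Trim30a and Trim30d (44). No source used here says how reads that fit several places were treated, so values at those starts are uncertain.

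The CMP/GMP lists held 69521 (WT) and 80171 (Cxcr3-/-) intervals and the monocyte lists 98257 (WT) and 78244 (Cxcr3-/-), of which 119, 125, 158 and 134 lay in member loci. Depth is given here by the summit pileup, the whole number of tags stacked at an interval's summit, recovered from the deposited fold enrichment and p-value. Its median over member intervals was 24, 34, 24 and 23 tags in the same order, beside 21, 29, 21 and 21 over all intervals, and the expected background under a typical interval was 1.59, 2.42, 0.956 and 1.08 tags. Before any ratio, pileups were divided by factors of 0.822, 1.35, 1.07 and 0.843, which make the 44591 regions called in all 4 libraries equal at the median. Markers of the labelled cells separated them in part. Of 7 progenitor markers, 6 had an end called in each CMP/GMP library and 4 in each monocyte library: Mpo and Elane were called only in CMP/GMP, Kit, Cd34, Flt3 and Gfi1 in all 4, and Prtn3 in none. Of 7 monocyte markers, 6 had an end called in all 4 libraries. Over their regions the median monocyte to CMP/GMP log2 ratio was 0.27 in WT and 0.31 in Cxcr3-/-. Mean ratios were positive at Klf4 (0.85 and 0.77), Csf1r (0.74 and 0.48), Cx3cr1 (0.44 and 0.25) and Cd14 (0.21 and 0.12). They were negative at Ly6c2 (−0.57 and −0.50) and Ccr2 (−0.39 and −0.42), and Fcgr3 had 0.06 and −0.03. Over the progenitor marker regions the medians were −0.86 and −0.16, beside 0.10 and 0.03 over the regions of all protein-coding loci. Among macrophage markers C1qa was called only in monocytes, Adgre1 in all 4 and Vsig4 in none, and no region was called at the T and NK cell genes Cd3e and Ncr1. Each group being a single library, differences have no replicate check and no p-value is given, and every interval printed covers counting error only. Tags at a site do not tell apart more open copies from more cells with that site open.

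The tags given for each gene are unscaled and belong to the region within 1 kb of the start that had the highest scaled pileup. At their starts, most members were already accessible in all 4 libraries. A region called in all 4 lay within 1 kb of the start in 29 of the 38 members (76.3%, where a start could not be taken from RefSeq either gene end was used), beside 54.7% of all genes. Among the 31 members with a RefSeq start the count was 25 (80.6%, beside 55.4%), and at least 1 annotated start base lay inside such a region in 23 of 31 (74.2%, beside 51% of genes). Of the 20 members with an ISRE core, 14 had the match inside a region called in all 4 libraries (70%), beside 36.8% of the 687 genes with a core. Library by library, the match lay inside a called region in 14 (WT) and 15 (Cxcr3-/-) of 20 members in CMP/GMP and in 17 (WT) and 16 (Cxcr3-/-) in monocytes. The same shares over the 687 genes were 38.6, 39.4, 41.0 and 39.7%, so the members stood higher in each library, in progenitors as well as in monocytes.

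**Figure D1:**
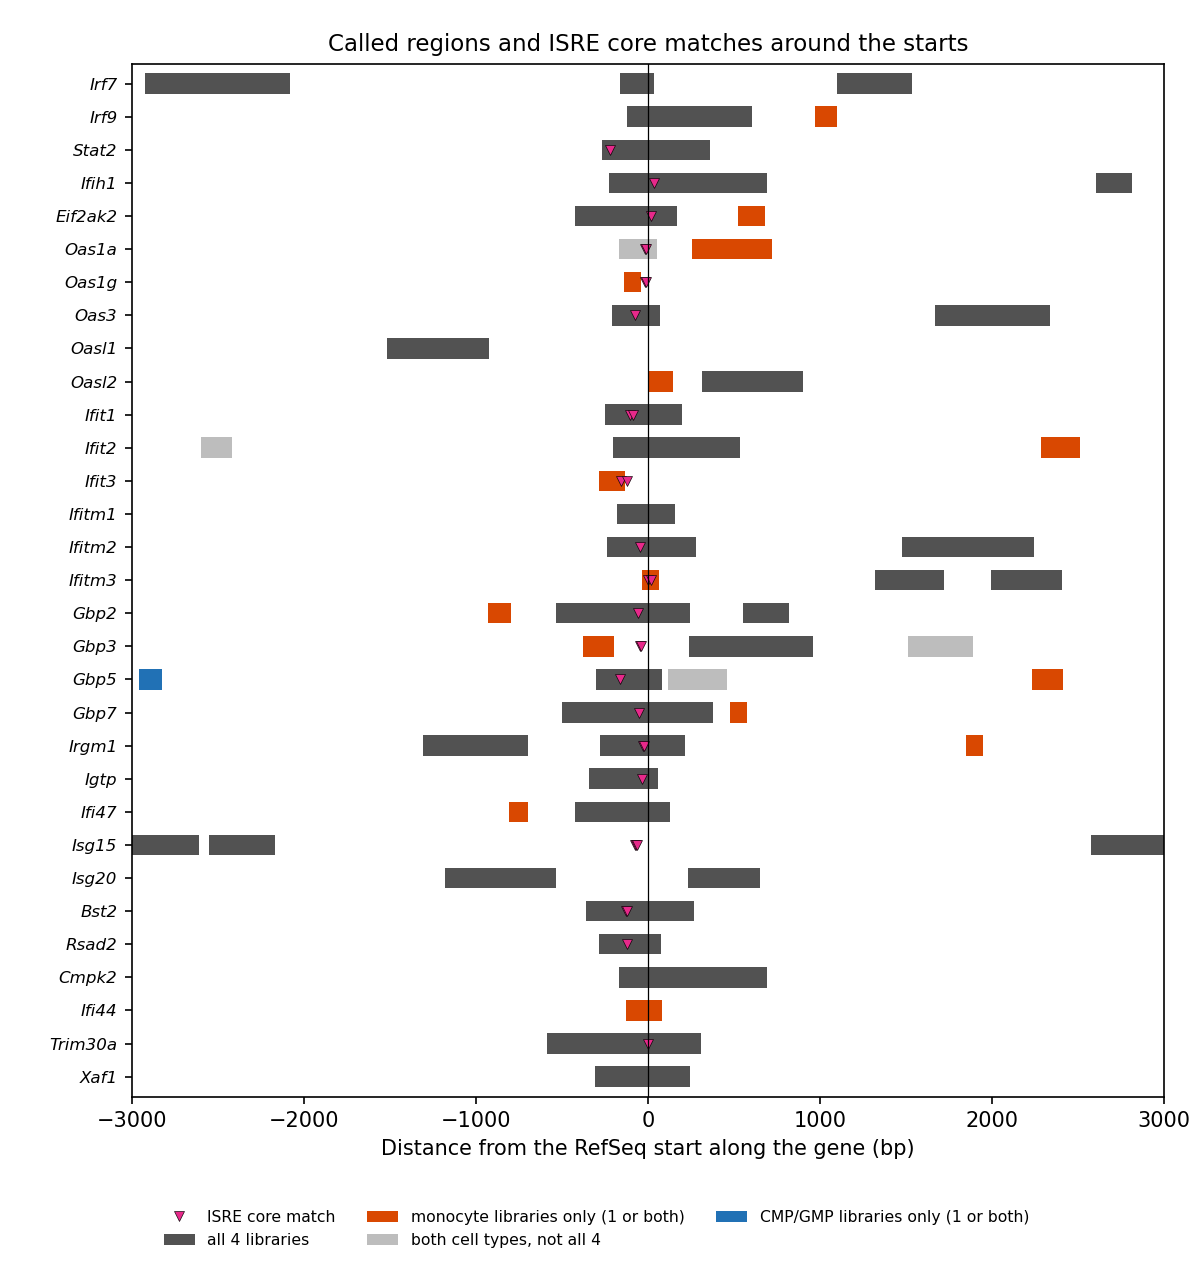
Called regions (bars, coloured by the libraries that called them) and ISRE core matches (triangles) within 3 kb of the RefSeq start of the 31 members that have one. The x axis is the distance from the start along the gene in bp, and with 1 start drawn per member, 21 of the 31 lie inside a dark bar, a region called in all 4 libraries.

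Among the regulators, all 4 had a start region in every library. Stat2, a subunit of ISGF3, had 97 (WT) and 139 (Cxcr3-/-) tags in CMP/GMP and 131 (WT) and 101 (Cxcr3-/-) in monocytes, the order used for every gene below. Irf9, its DNA-binding partner, had 57, 104, 75 and 69. After scaling, all 8 cell-type and genotype ratios at these 2 starts were between −0.20 and 0.22 on the log2 scale, so neither start stood out in any library by this scaling. Usp18, a protease that removes Isg15 and dampens the receptor, had 41, 91, 72 and 67 tags, and Irf7, the factor that amplifies interferon production, had 28, 31, 48 and 28.

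The sensors were open at an end in all 4 libraries as well. Ifih1 encodes the double-stranded RNA sensor MDA5, and its start (chr2:62645563-62646481) had 98, 153, 56 and 67 tags. The log2 ratio of monocytes to CMP/GMP was −1.19 (95% counting interval −1.69 to −0.70) in WT and −0.51 (−0.95 to −0.09) in Cxcr3-/-. That difference depends on the scaling, since by background tags the ratios were −0.08 (−0.58 to 0.41) and −0.02 (−0.46 to 0.40). Ifi204, of a family of DNA sensors, went the other way at its end with 66, 90, 120 and 134 tags. The remaining sensors were Dhx58, a helicase that modulates MDA5 (25, 55, 61 and 31), Zbp1, a sensor of Z-form nucleic acid (44, 80, 41 and 37), and Eif2ak2, the kinase PKR that halts translation (47, 59, 81 and 50).

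The oligoadenylate synthetase (OAS) genes, whose product activates RNase L, had a region called in all 4 libraries within 1 kb of the start in 3 of 6 members, and over the start itself in Oas3 alone. Oas3 had 25, 40, 42 and 29 tags. At the neighbouring Oas2 end (chr5:120749715-120750096) no interval was called in WT CMP/GMP, and the other libraries had 13, 61 and 40 tags, with the 2 monocyte libraries far above the single progenitor call. The Cxcr3-/- monocyte to CMP/GMP log2 ratio there was 2.30 (1.37 to 3.33), at a mean pileup below the 30 tags required of the ratios counted below. Oas1a was not called in WT CMP/GMP and had 15, 23 and 16 tags in the others. Oas1g had a region 40 bases before its start, called in WT monocytes alone with 10 tags. The starts of Oasl1 and Oasl2, like that of Oas1g, lay in no region. The nearest region called in all 4 was 923 bases before the Oasl1 start (33, 62, 52 and 27 tags) and 313 bases after that of Oasl2 (10, 19, 19 and 11).

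Of the IFIT genes, whose products bind foreign RNA, Ifit2 had 53, 76, 57 and 42 tags at its start. Ifit1 was weaker, at 15, 21, 25 and 19. Ifit3 had a weak region before its start in the 2 monocyte libraries only, with 11 tags in WT and 13 in Cxcr3-/-. The IFITM genes, whose membrane proteins hinder viral entry, ranged as widely: Ifitm2 had 28, 66, 58 and 27 tags, Ifitm1 had 11, 24, 11 and 9, and the Ifitm3 start was called in WT monocytes alone, with 16.

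Among the interferon-inducible GTPases, which act on vacuoles that hold microbes, 7 of 8 were open at an end in all 4 libraries. The guanylate-binding protein genes Gbp3 (88, 128, 71 and 73 tags), Gbp7 (70, 105, 103 and 92), Gbp2 (52, 61, 37 and 29) and Gbp5 (27, 57, 30 and 22) were all called in every library. The immunity-related GTPases Ifi47 (43, 71, 72 and 65), Irgm1 (30, 56, 57 and 43) and Igtp (22, 43, 36 and 17) were too. The Irgm1 region lies 700 bases before the start, and the region over the start had 22, 37, 23 and 18 tags. Iigp1, of the same family, had no region at either end in any library.

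The other effectors ranged from over 100 tags at the start to none. Cmpk2, a nucleotide kinase beside Rsad2, had 100, 165, 61 and 47 tags, and Trim30a, a TRIM-family gene, had 85, 119, 116 and 113. Bst2 (tetherin, which holds budding virions at the membrane) had 57, 96, 80 and 35 tags, Isg20 (an exonuclease) 51, 97, 43 and 44, Rsad2 (viperin) 33, 48, 28 and 35, and Xaf1 26, 37, 56 and 46. The Isg20 region lies 536 bases before the start and also in the locus of Aen. Another region, over an annotated Isg20 start, had 23, 44, 49 and 39 tags. Monocyte to CMP/GMP log2 ratios in WT and Cxcr3-/- were −0.63 and −0.46 at the former and 0.71 and 0.50 at the latter. Of these, only the WT interval at the former excludes 0. Isg15, a ubiquitin-like modifier and a textbook target of ISGF3, had no called region within 1 kb of its start in any library. The regions nearest to it, 2169 bases before and 2574 bases after the start, were called in all 4 (24, 27, 26 and 30 tags, and 72, 123, 125 and 111) and lie also in the loci of Agrn and Perm1. Having no region in any library within 1 kb was the state of 34.9% of all genes with a RefSeq start, and Isg15 was the only member among the 31. Ifi44 was called at its start in Cxcr3-/- monocytes alone with 8 tags. The Parp14 end region with the highest scaled pileup was called in CMP/GMP alone (20 and 19 tags), and another at that end had 28, 21 and 19 tags with no call in WT CMP/GMP.

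**Figure D2:**
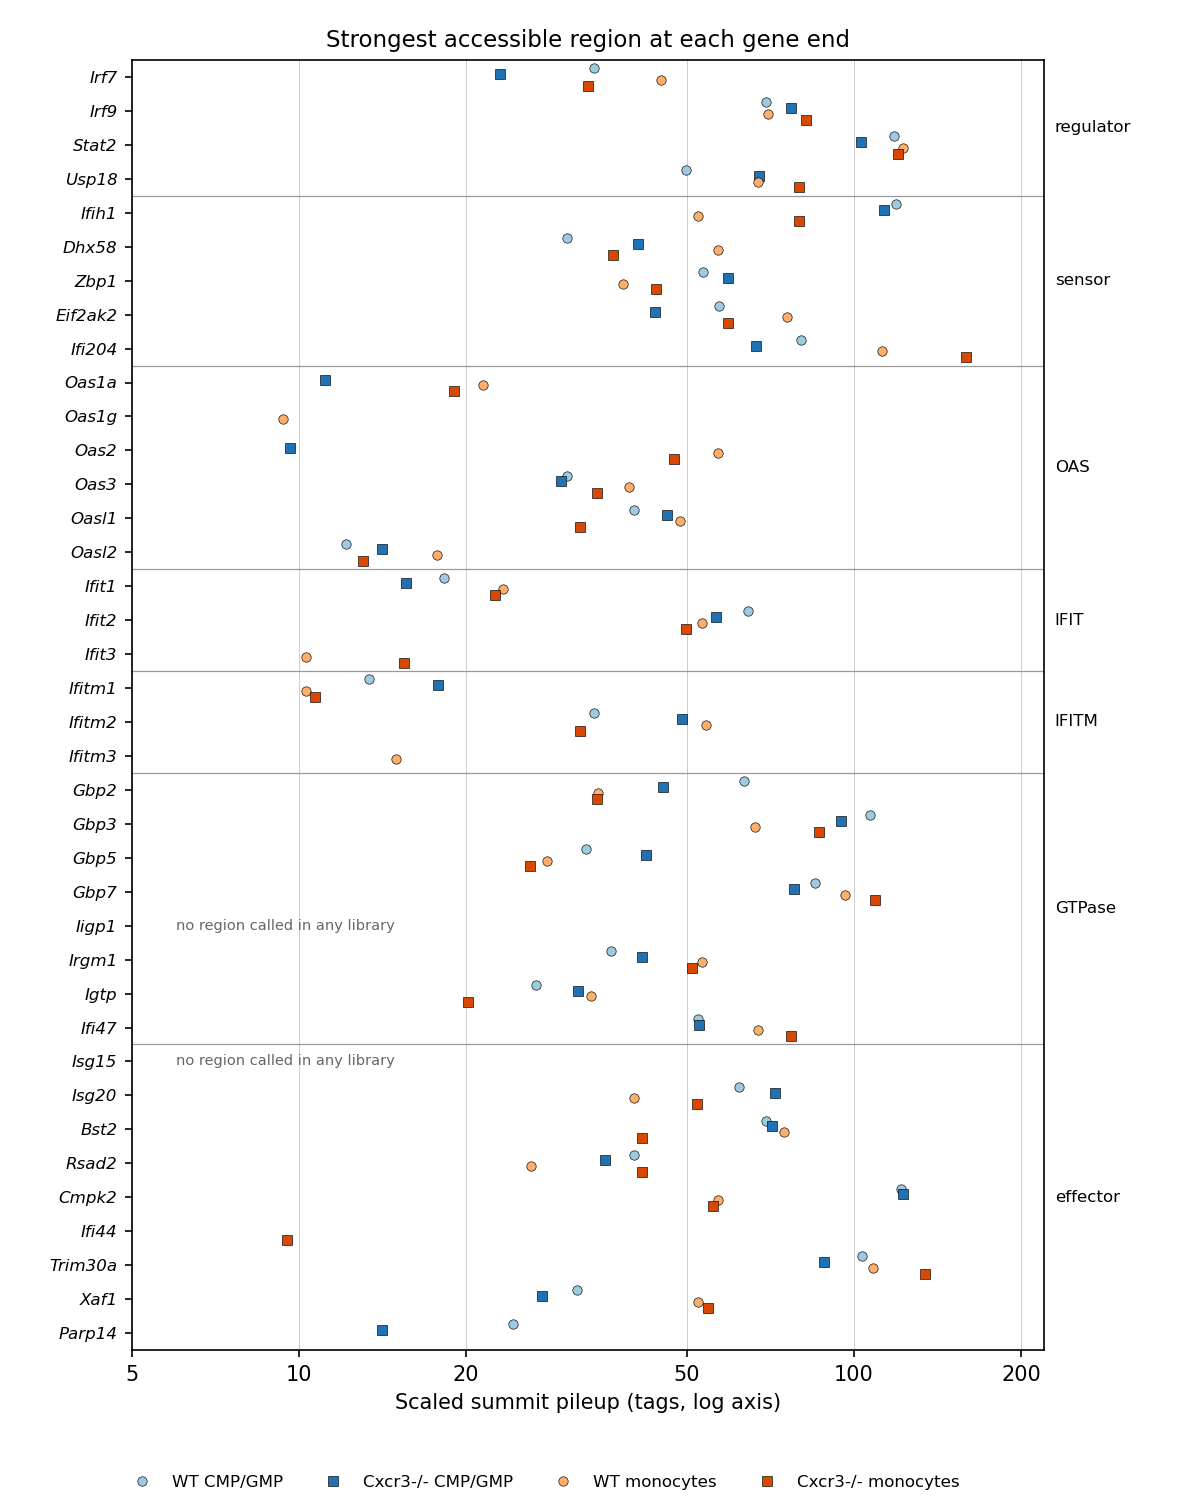
Scaled summit pileup (tags, log axis) of the strongest region at the start, or at either end where no RefSeq start was available, for each of the 38 members in role order. Each point is 1 library, and a missing point is a library without a call. Cmpk2, Ifih1 and further members such as Gbp2 show both progenitor points to the right of both monocyte points. Ifi204, Xaf1 and further members such as Gbp7 show the opposite, at the scaling by regions called in all 4.

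Over whole loci, presence differed between cell types for a minority of member regions. All 4 libraries called 83 of the 183 regions (45.4%), beside 38.7% of the regions of all protein-coding loci. Both monocyte libraries and neither CMP/GMP library called 24 (13.1%, beside 13.8%), and both CMP/GMP libraries and neither monocyte library called 10 (5.46%, beside 6.69%). Calls in 1 library only came to 20 in WT monocytes (10.9%, beside 12.6%), 10 in Cxcr3-/- CMP/GMP (5.46%, beside 7.29%), 7 in Cxcr3-/- monocytes (3.83%, beside 2.51%) and 5 in WT CMP/GMP (2.73%, beside 2.67%). The cell-type counts sit near the background. The WT monocyte list was also the longest and had the lowest background, and with every list reduced to the length of the shortest the counts were 18 (11.6%, beside 12.9%) and 15 (9.68%, beside 10.9%). Within gene bodies alone the monocyte-only count was 19 of 99 regions (19.2%, beside 14.0%) and the CMP/GMP-only count 4 (4.04%, beside 6.49%).

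**Figure D3:**
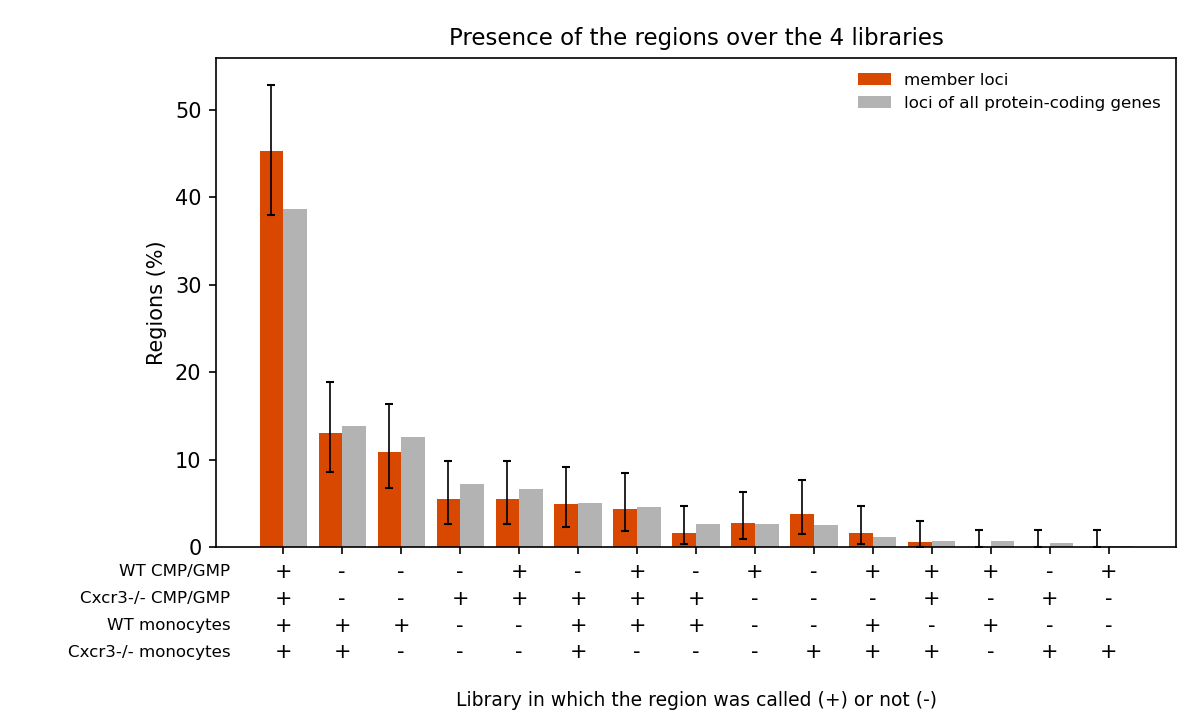
Share of regions (%) with each pattern of calls over the 4 libraries, for the 183 regions of member loci and the 88410 of all protein-coding loci. Error bars are exact 95% binomial intervals of the member share, and 83 member regions (45.4%) have the pattern of a call in every library.

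The strongest monocyte-only region lay inside Ifih1, 10626 bases after its start (chr2:62635260-62635629). It had 49 tags in WT and 43 in Cxcr3-/- monocytes, where equal accessibility would have given 37.6 and 68.8 tags in the WT and Cxcr3-/- CMP/GMP libraries. Those values are above 7 and 9, the lowest pileups called anywhere in these libraries. Ifih1 had a second, weaker one at 11 and 9 tags.

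The GTPase genes held 9 of the 24 monocyte-only regions, which is 18% of their 50 regions, beside 13.8% over all protein-coding loci. The share was 20% of 20 regions in the OAS loci and 22.2% of 9 in the IFIT loci. In the other roles it ran from 5% (regulators) to 10.3% (sensors). A region in Gbp5 (chr3:142499165-142499345) had 30 tags in WT and 44 in Cxcr3-/- monocytes, and another just before a Gbp3 start had 30 and 37 (chr3:142559665-142559846). Further ones in the Gbp3 and Gbp7 loci had 17 and 20, and 7 and 7 tags. At the last, equal accessibility would have given 5.38 tags in WT CMP/GMP, below the lowest call there of 7, and 11.2 in Cxcr3-/- CMP/GMP. A region in the Irgm1 flank had 33 and 26 tags, those in Ifi47 had 24 and 26, and 12 and 18, and those inside Iigp1, the gene without an open end, had 17 and 12, and 15 and 16.

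The OAS loci held 4 such regions: 24 and 12 tags inside Oas1g, 18 and 13 between Oas1g and Oas1a, 12 and 10 inside Oas1a, and 11 and 10 in Oas2. The remaining ones were weak as well. They lay at Ifitm1 (20 and 19), Rsad2 (17 and 16), Eif2ak2 (15 and 12), Ifit2 (15 and 12), Ifit3 (11 and 13), Trim30a (13 and 12), Parp14 (12 and 8), Stat2 (11 and 9) and Ifi44 (9 and 15). Equal accessibility would have given 6.91 tags in WT CMP/GMP at Ifi44, where the lowest call was 7. It would have given 8.45 at Stat2, Ifit3, Oas2 and the weaker Ifih1 region. A missing call at such weak regions does not by itself show lower accessibility.

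Of the 10 progenitor-only regions, those inside Ifi47 (34 tags in WT and 39 in Cxcr3-/- CMP/GMP) and beside Zbp1 (31 and 47) were strongest. Equal accessibility would have given 44.3 and 24.4 tags at Ifi47 in WT and Cxcr3-/- monocytes, and 40.4 and 29.4 at Zbp1. Ifi47 therefore held regions of both kinds in 1 locus. The others were at Irgm1 (19 and 34), Parp14 (20 and 19), Ifit1 (12 and 23, and 18 and 23), Irf9 (12 and 25), Ifi44 (12 and 18), Oas3 (12 and 16) and Ifih1 (9 and 13).

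Where a region was called in both cell types, its strength could be compared. Over the 58 member regions that averaged 30 tags or more, the median WT monocyte to CMP/GMP log2 ratio was 0.34, beside 0.10 over the 21654 regions of all protein-coding loci. More than 1.5-fold higher in monocytes were 15 regions (23.6% of all regions were), and 12 were lower by as much (13.6% of all). In Cxcr3-/- cells the median over 56 regions was 0.22, beside 0.03, with 13 higher (23.3% of all) and 6 lower (15.9% of all). These medians depend on the scaling. By background tags they were 1.47 in WT and 0.71 in Cxcr3-/-, with 48 of 61 regions higher and 0 lower in WT (86.4% and 1.14% of all regions) and 31 of 56 higher and 1 lower in Cxcr3-/- (47.9% and 3.74%). Relative to all regions the member median was 0.24 in WT and 0.18 in Cxcr3-/- by regions called in all 4, and 0.21 and 0.15 by background tags. By regions called in all 4, this relative median was 0.03 in WT and 0.24 in Cxcr3-/- over regions averaging 60 tags or more. Within gene bodies alone it was 0.12 and 0.07, so its size varied with the regions taken.

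The WT and Cxcr3-/- pairs share no library. In 53 member regions measured in both, the sign was the same in 42 (79.2%), as it was in 73.8% of all regions. Beyond 1.5-fold in both pairs, 7 were higher in monocytes (15.3% of all regions were, against 13.2% of the members) and 2 were lower (7.52% of all). The member shares were near those of all regions.

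The 7 higher regions gathered at few genes. At Ifi204, 2 regions in the flank shared with Ifi207 had 15, 24, 68 and 73 tags (chr1:173742273-173742623) and 21, 35, 86 and 80 (chr1:173741681-173742117). Both monocyte libraries lay far above both progenitor libraries: the log2 ratios at the first were 1.80 (0.98 to 2.71) in WT and 2.28 (1.60 to 3.01) in Cxcr3-/-. A further one in the same flank (chr1:173737045-173737407) was not called in WT CMP/GMP and had 19, 78 and 82 tags, the largest Cxcr3-/- ratio of any member region at 2.79 (2.05 to 3.59).

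Trim30a showed the same in 2 neighbouring flank regions shared with Trim30c. They had 24, 33, 71 and 81 tags (chr7:104401159-104401466) and 33, 52, 72 and 77 (chr7:104400595-104401125), and the first rose by log2 ratios of 1.18 (0.50 to 1.92) in WT and 1.97 (1.37 to 2.60) in Cxcr3-/-. The region at 1 annotated Trim30a start had ratios of 0.07 and 0.60 and that at the other (chr7:104464916-104465743) 0.36 and 0.11, and the difference between flank and start was not tested. A region 5963 bases before the Ifitm3 start had 38, 67, 102 and 73 tags, with ratios of 1.04 (0.49 to 1.62) and 0.80 (0.30 to 1.30). A region in the Igtp flank had 21, 46, 46 and 54, and the Xaf1 start had ratios of 0.73 (0.03 to 1.46) and 0.99 (0.34 to 1.66). The WT interval at Igtp, −0.02 to 1.57, includes 0.

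The 2 regions lower in monocytes were the Cmpk2 start and a Gbp5 flank region. At Cmpk2 (chr12:26469047-26469907) the log2 ratios were −1.09 (−1.58 to −0.62) in WT and −1.13 (−1.63 to −0.66) in Cxcr3-/-. Its neighbour Rsad2 had −0.62 (−1.40 to 0.15) and 0.22 (−0.45 to 0.88) at the start, intervals that include 0. The Gbp5 flank region (chr3:142490440-142490831) had 39, 84, 28 and 26 tags and ratios of −0.86 (−1.61 to −0.12) and −1.01 (−1.71 to −0.36). By background tags the Cmpk2 ratios were 0.02 (−0.46 to 0.49) in WT and −0.64 (−1.14 to −0.17) in Cxcr3-/-, and those of the Gbp5 region 0.25 (−0.50 to 0.99) and −0.52 (−1.22 to 0.13), so both change sign in WT. Scaling by background tags raises every ratio by the same amount, 1.11 in WT and 0.49 in Cxcr3-/-. The 7 higher regions therefore had to stay higher, and only lower regions could change sign.

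**Figure D4:**
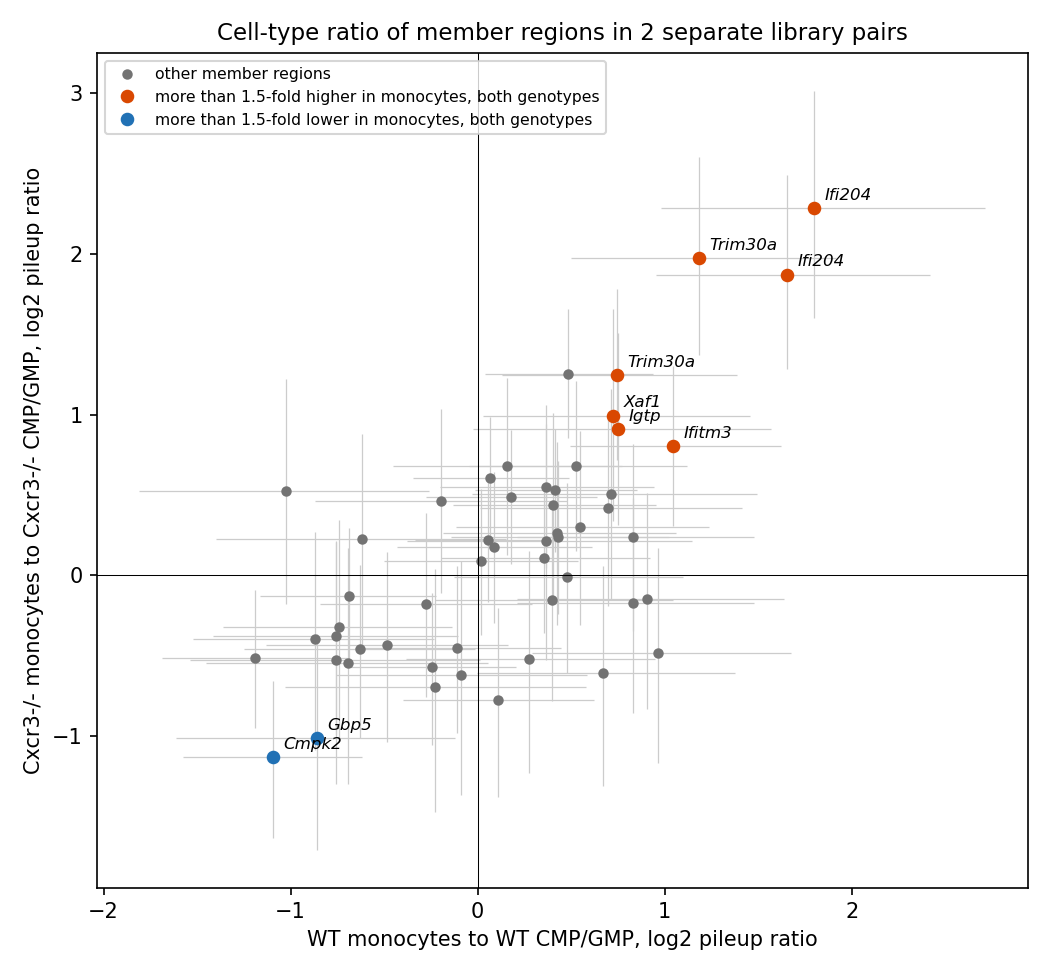
Monocyte to CMP/GMP log2 pileup ratio of the 53 member regions measured in both genotypes, WT on the x axis and Cxcr3-/- on the y axis, with 95% counting intervals as grey lines. The 7 regions more than 1.5-fold higher in monocytes in both pairs lie at Ifi204, Trim30a, Ifitm3, Igtp and Xaf1, and the 2 lower ones at Cmpk2 and Gbp5.

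Between genotypes, CMP/GMP showed little difference at the members. The median Cxcr3-/- to WT log2 ratio over 51 regions was 0.01, beside 0.04 over all regions. A single region was more than 1.5-fold higher (2.64% of all regions were), in the Dhx58 body with 26 tags in WT and 65 in Cxcr3-/- (0.61, −0.07 to 1.32), an interval that includes 0. The next were the Ifitm2 start (28 and 66 tags, 0.52, −0.14 to 1.22) and the 5′ part of Trim30a, beside Trim30d (45 and 101, 0.45, −0.07 to 0.99). Lower by more than 1.5-fold were 2 regions (2.21% of all), upstream of Ifih1 beside Gca with 39 tags in each library (−0.71, −1.39 to −0.04) and upstream of Gbp5 with 54 in WT and 58 in Cxcr3-/- (−0.61, −1.17 to −0.05). Equal raw tags give a negative ratio because the Cxcr3-/- library was the deeper at shared regions. The third was the progenitor-only region inside Ifi47 (34 and 39 tags, −0.52, −1.22 to 0.19). By background tags, 2 of 39 regions were higher and 0 lower (4.33% and 0.444% of all), and the intervals at the Gca and Gbp5 regions included 0 while that at Dhx58 did not (0.71, 0.03 to 1.43).

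In monocytes the genotype ratios of member regions were more spread. The median over 61 regions was 0.06, beside −0.01 over all regions, with an SD over regions of 0.44 beside 0.36. More than 1.5-fold higher in Cxcr3-/- were 7 (4.23% of all regions were) and lower 8 (5.69% of all). Higher were the monocyte-only region in Gbp5 (30 tags in WT and 44 in Cxcr3-/-, 0.90, 0.20 to 1.62), the region beside Gca upstream of Ifih1 (25 and 35, 0.83, 0.05 to 1.63) and the Rsad2 start (28 and 35, 0.67, −0.09 to 1.44). The interval at Rsad2 includes 0, and by background tags those at all 3 do. Lower were a Stat2 flank region shared with Il23a and Pan2 (74 and 31, −0.91, −1.56 to −0.29), the Bst2 start (80 and 35, −0.85, −1.46 to −0.26) and the Dhx58 body region (66 and 29, −0.84, −1.52 to −0.19). These 3 intervals exclude 0 under both scalings. Scaling by background tags lowers every ratio of this comparison by 0.52, so an interval already below 0 had to stay there.

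The scaling decides the balance of those calls: by background tags the median was −0.47, beside −0.54 over all regions, and 0 of 74 regions were higher and 26 lower (0.239% and 45.3% of all). Gene density moved with the ratio in rank, and between the medians of all regions, though not between those of the member regions. The 3 higher regions named above lay in 1 Mb windows with 10, 7 and 3 protein-coding genes and the 3 lower ones in windows with 46, 36 and 43. Across the 61 member regions Spearman's rho of that ratio with the genes per window was −0.32, beside −0.39 over all 25142 regions, and in CMP/GMP it was 0.25 over 51 regions beside 0.17. With windows split at 25 genes, the member medians were 0.06 at or below and 0.05 above, beside 0.04 and −0.21 over all regions. Regions of 1 locus share their window, and the part of gene density in the genotype ratios was not tested.

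**Figure D5:**
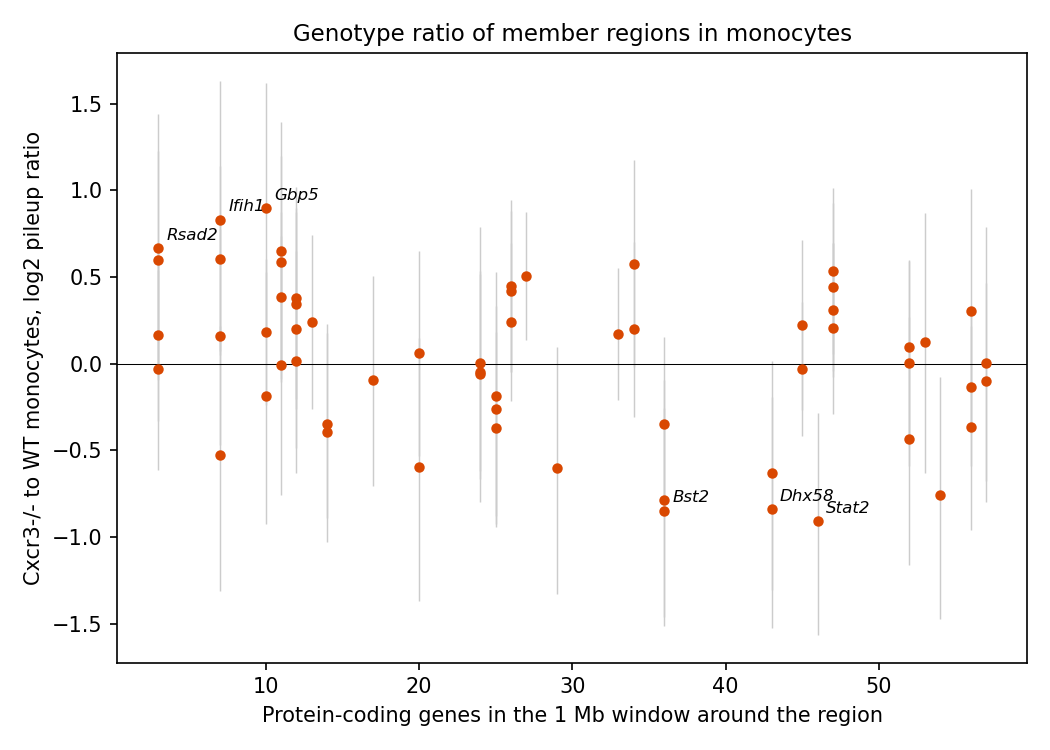
Cxcr3-/- to WT monocyte log2 pileup ratio of the 61 member regions (y axis, with 95% counting intervals) against the protein-coding genes counted in a window of 1 Mb around each (x axis). The 3 highest regions (Gbp5, Ifih1 and Rsad2) lie at 10 or fewer genes and the 3 lowest (Stat2, Bst2 and Dhx58) at 36 or more.

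Other genes of the pathway, none of them members, gave a reference: receptors and kinases (such as Ifnar1, Ifngr1 and Jak1), interferon regulatory factors, suppressors of cytokine signalling, sensors, adaptors and antigen-processing genes. All 31 matched, and 28 had a region called in all 4 libraries at a gene end (54.7% of all genes had), the exceptions being Irf5, Sp100 and Pml. Their 259 regions included 121 called in all 4 (46.7%, beside 38.7% of the regions of all protein-coding loci). Both monocyte libraries alone called 36 (13.8% of all regions were), and both CMP/GMP libraries alone called 5 (6.69% of all). The median WT monocyte to CMP/GMP log2 ratio was 0.46 over 78 regions, beside 0.10 over all regions. More than 1.5-fold higher were 32 and lower 2 (23.6% and 13.6% of all regions). In Cxcr3-/- it was 0.13 over 82, beside 0.03, with 24 higher and 8 lower (23.3% and 15.9% of all). Between genotypes the median in CMP/GMP was 0.15, beside 0.04, with 7 higher and 2 lower (2.64% and 2.21% of all regions). In monocytes it was −0.08, beside −0.01, with 0 higher and 6 lower (4.23% and 5.69% of all). All these ratios use the scaling by regions called in all 4, on which the medians depend. Both sets had positive medians in both cell-type comparisons, and whether they differ from each other was not tested.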

How the data were processed

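Omni-ATAC-seq libraries of cultured mouse CMP/GMP and monocytes, WT and Cxcr3-/-, were compared, 1 library per group. Per the submitters' processing notes, Trim Galore, Bowtie2 and SAMtools were used with mm10, and no source used here gives the peak caller or its settings. The authors deposited 1 interval list per library. The deposited score is the authors' own and was not used. The deposited fold enrichment is a ratio of the summit pileup to its background, and the −log10 p and −log10 q that the authors deposited belong to each interval's summit.

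A whole-number pileup (tolerance 0.001) was solved for from fold and −log10 p under a Poisson background with 1 added tag. Of the 4 lists, 2 intervals in Cxcr3-/- CMP/GMP and 1 in WT monocytes had no solution within the tolerance. The form was inferred from the values. The solution was tested on data simulated with that same form, which cannot show that the deposited lists follow it. Intervals sharing at least 1 base were merged, with the highest pileup per library. Ratios needed a call in both libraries and a mean scaled pileup of at least 30 tags; counting intervals are exact 95% conditional binomial intervals, and 1.5-fold was the size rule. RefSeq tables of GRCm38.p6 gave genes, starts and promoter windows. Python 3.11.15, pandas 2.3.3 and SciPy 1.17.1 were used.

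The members and lists were chosen with earlier results of these data known, and 1 gene of the list of other pathway genes is not reported here. Named by rule were each member's strongest region at a gene end, every region of 1 cell type only, and the 3 largest ratios per direction and comparison; promoter stretches were at most 8, in role order. Alternatives covered list length, a −log10 q of at least 5, joining by summits within 250 bp, locus and gene-end size, scaling, the pileup minimum and the motif.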

Additional observations from a re-analysis of the deposited data

Results flagged for a closer look

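At 1 member region the genotypes differed in opposite directions in the 2 cell types, beyond counting error in each. This is the region upstream of Ifih1 and beside Gca on chromosome 2 (62654564 to 62654959), with 39 tags in each CMP/GMP library and, in monocytes, 25 in WT and 35 in Cxcr3-/-. The Cxcr3-/- to WT log2 ratio was −0.71 in CMP/GMP and 0.83 in monocytes, and each counting interval excludes 0. By background tags the ratios were −0.61 (−1.29 to 0.07) and 0.31 (−0.47 to 1.11), with both intervals including 0. It was picked out for this opposite direction, and with 1 library per group the difference between the ratios was not tested.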

How the results depend on the processing

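Of 40 alternative values, 33 stayed within 1.5 times the reported count or within the order-statistic 95% interval of the reported median over regions. The other 7 are these. With the gene body alone, 43 regions were called in all 4 libraries and 4 in CMP/GMP only, and with 25 kb on either side 17 were CMP/GMP-only, since the loci hold fewer or more regions (99 and 275). Scaling by background tags moved the medians to 1.47 (WT, between cell types), 0.71 (Cxcr3-/-, between cell types) and −0.47 (monocytes, between genotypes), and it moved the medians over all regions to 1.26, 0.56 and −0.54. Over regions averaging 60 tags or more, the genotype median in monocytes was 0.22 over 23 regions, beside 0.03 over all regions, and the cause was not tested. The gene-end count ranged from 27 to 29 of 38. No paired analysis was possible because each group has 1 library and its replicate number is only a name. Depth limits single ratios: the 28 and 35 tags at the Rsad2 start in monocytes give a counting interval from −0.09 to 1.44 on the log2 scale.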

Other observations

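Strong and weak calls at or near starts stood side by side within gene families. On chromosome 5 the Oas3 start was called in all 4 libraries with 25 to 42 tags. Oas1g of the same family had a region 40 bases before its start, called in WT monocytes alone with 10. On chromosome 19 the Ifit2 start had 42 to 76 tags. Ifit3 had 11 and 13 in the monocyte libraries, before its start, and no call in CMP/GMP. The Ifit3 window shares 95 of its 226 read-length stretches with Ifit3b. The Oas1g window shares a run of 73 bases with Oas1a, just under the read length of 75. How reads that fit several places were treated is not known, so the low values at Ifit3 and Oas1g are uncertain. Gbp3 has its ISRE core before 1 of its starts that no region covers, between a monocyte-only region and one called in all 4 libraries.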
